A study of Homo sapiens with 12 samples.

Results

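The genes described here are TXNIP, the alpha-arrestins ARRDC1, ARRDC2, ARRDC3 and ARRDC4, the transcription factor partners MLXIP (the protein known as MondoA) and MLX, and the glucose transporters SLC2A1 (GLUT1) and SLC2A3 (GLUT3). They were chosen by name, with earlier results of these data known, as 9 of the 36601 genes in the table, and all 9 were among the 15376 genes tested. They were measured by RNA sequencing in KP4, a human cell line from a pancreatic ductal carcinoma, unmodified in genotype and grown in DMEM with fetal bovine serum. All cells received treatment for 24 h. The control cells received DMSO, the vehicle. The Met cells received 10 mM metformin, a biguanide that blocks mitochondrial respiration at complex I. The FK cells received 5 nM FK866, an inhibitor of NAMPT, the rate-limiting enzyme of NAD salvage. The Met+FK cells received both drugs at those doses. There were 3 libraries of each, from total RNA depleted of ribosomal RNA, and the labels do not say that they came from separate cultures, so that the p-values measure only the spread between these libraries.

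MLXIP and MLX form a heterodimer that senses glucose 6-phosphate and other hexose phosphates and activates genes through carbohydrate response elements, which are pairs of E-box-like sites. TXNIP and ARRDC4 are the best known of its targets. TXNIP binds thioredoxin and, like ARRDC4, lowers glucose uptake by promoting the endocytosis of glucose transporters, so the group is known as a feedback loop between glucose supply and glucose entry. Other alpha-arrestins work as adaptors that bring NEDD4-family ubiquitin ligases to membrane proteins.

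Of the 9 genes, 8 had a promoter in the RefSeq table used (GRCh38.p14), and SLC2A3 had none there. The 250 bases before each start were searched on both strands for an E-box, CACGTG, and for a carbohydrate response element written as CACGNG repeated after 5 bases, a form chosen because it admits the known TXNIP element. The 3 promoters with a match are shown in lower case from 5′ to 3′ along the gene, with the matches in capitals. Only the TXNIP promoter holds the paired element, and those of ARRDC4 and MLX hold a single E-box. TXNIP lies on the minus strand of chromosome 1, with its upstream bases at chr1:145996580-145996829, and its element runs from -88 to -72 relative to the start. ARRDC4 lies on the plus strand of chromosome 15, with its upstream bases at chr15:97960453-97960702 and an E-box from -210 to -205. MLX lies on the plus strand of chromosome 17, with its upstream bases at chr17:42566850-42567067 and an E-box from -50 to -45. The last 32 bases of the MLX window are left out because the deposited table starts the gene there.
TXNIP: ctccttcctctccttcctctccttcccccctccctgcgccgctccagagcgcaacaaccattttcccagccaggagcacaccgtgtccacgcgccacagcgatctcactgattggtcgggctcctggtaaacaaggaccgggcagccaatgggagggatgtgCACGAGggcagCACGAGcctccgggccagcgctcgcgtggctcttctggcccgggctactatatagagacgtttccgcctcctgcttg
ARRDC4: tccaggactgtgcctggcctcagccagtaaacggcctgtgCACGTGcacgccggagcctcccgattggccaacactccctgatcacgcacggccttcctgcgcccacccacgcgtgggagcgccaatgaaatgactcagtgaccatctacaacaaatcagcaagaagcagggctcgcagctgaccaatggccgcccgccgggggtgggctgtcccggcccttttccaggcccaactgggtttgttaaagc
MLX: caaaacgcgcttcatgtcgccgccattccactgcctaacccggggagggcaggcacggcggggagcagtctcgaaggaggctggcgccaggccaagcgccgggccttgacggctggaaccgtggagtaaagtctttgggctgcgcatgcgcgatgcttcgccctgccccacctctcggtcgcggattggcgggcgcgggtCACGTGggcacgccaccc
The searched form of the element was found in 16 of 35116 promoters (0.0456%) and the E-box in 2228 of them (6.34%). These matches describe the letters only, and binding was not measured.

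Between 30667735 and 41052203 read pairs were counted per library (median 34767232). Values are normalized counts, which are read pairs divided by the library's size factor, and each of the 9 genes had at least 75 read pairs in every library. The keratins KRT8 (2217 to 3222 normalized counts) and KRT18 (9398 to 18721) were high in all libraries, as was the mesenchymal filament VIM (93661 to 121917). The epithelial genes EPCAM (3.78 to 12.5), CDH1 (24.2 to 86.5) and KRT19 (14.6 to 75.0) were low, and the acinar gene CPA1 and the endocrine gene INS were at 0. The leukocyte gene PTPRC ranged from 101 to 304 and CD68 from 721 to 1009.8, while CD3E did not exceed 1.02.

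In DMSO, levels were compared between genes as normalized counts per kilobase of the canonical transcript. MLX had the highest level, with 1587 ± 32.7 per kilobase (SD, n = 3), followed by SLC2A3 with 1416 ± 143 and SLC2A1 with 992 ± 121. ARRDC3 (494 ± 86.9 per kilobase) and MLXIP (457 ± 43.8) came next and overlapped between libraries, so their order is not set. TXNIP followed at 256 ± 25.7 per kilobase, then ARRDC1 at 168 ± 1.09, ARRDC2 at 154 ± 9.41 and ARRDC4 at 24.4 ± 3.81. The lowest MLX library and the highest SLC2A3 library in DMSO nearly met, at 1552 and 1551.5 per kilobase. In Met, FK and Met+FK, SLC2A3 was the highest of the 9, although in FK its libraries (1717 to 2004 per kilobase) overlapped those of ARRDC3, which had moved up to 1436 ± 367. TXNIP lay above MLXIP in FK (515 ± 15.4 against 371 ± 31.8 per kilobase) and in Met+FK (436 ± 24.5 against 389.6 ± 10.1), with no overlap in either, whereas MLXIP was above TXNIP in DMSO and Met.

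**Figure D1:**
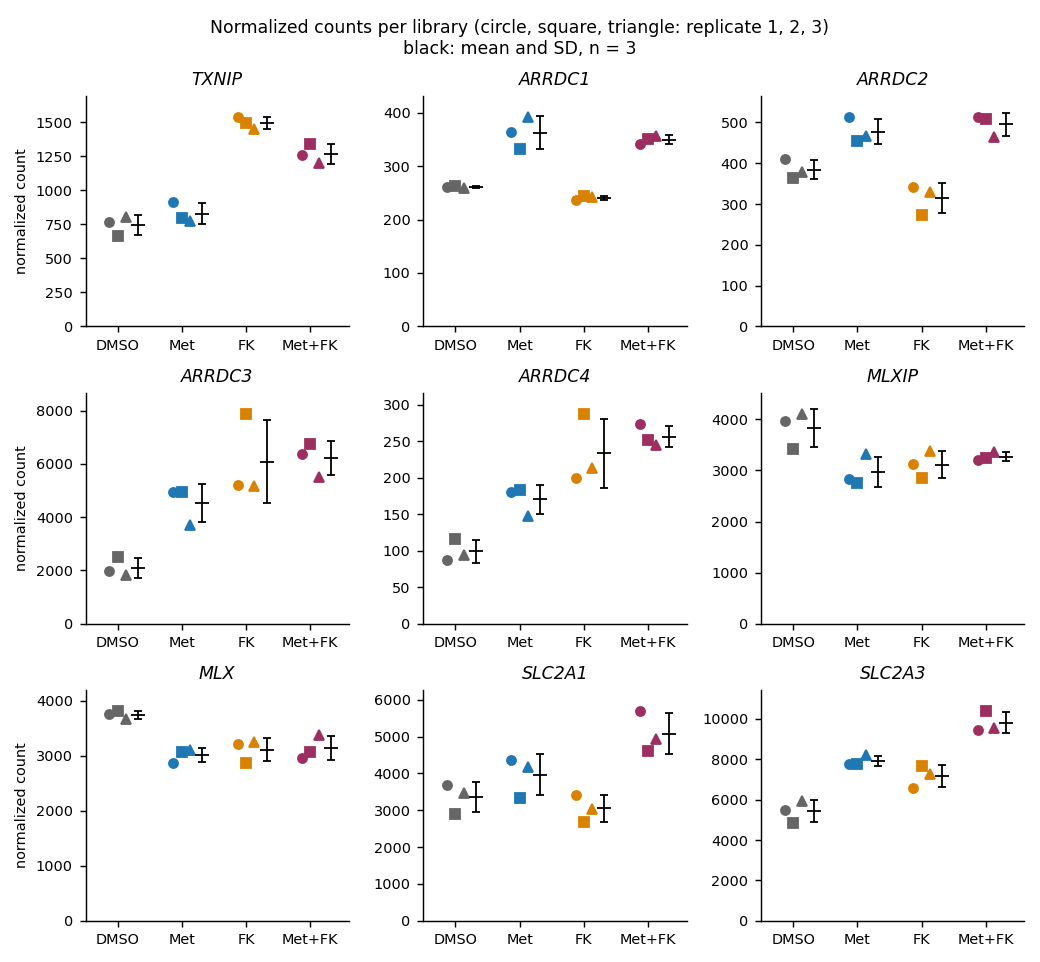
Normalized counts (vertical axis, linear, from 0) of the 9 genes in the 4 treatments, with 1 symbol per library and the mean and SD (n = 3) in black. TXNIP libraries in FK and Met+FK lie above all DMSO and Met libraries, while MLX libraries in DMSO lie above those of every other treatment.

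TXNIP rose with FK866 to 2.01 times its mean in DMSO, and its change with metformin alone did not pass the test. The gene lies on chromosome 1 from 145992435 to 145996579 (hg38, minus strand). Its normalized counts were 767, 661 and 805 in the 3 DMSO libraries and 1541, 1496 and 1452 in the FK libraries, so that the lowest FK library was well above the highest control. On the log2 scale the rise was 1.01 with a standard error (SE) of 0.094, and limma-trend, the test used throughout unless another is named, gave an adjusted p = 3.93e-05. It held in all 6 fits that left out 1 library (0.93 to 1.07). In bulk RNA, fewer cells of a type and less RNA per cell cannot be told apart. The Met libraries held 917, 794 and 776 normalized counts and overlapped the controls, with a log2 fold change of 0.16 (95% interval -0.05 to 0.36, adjusted p = 0.18). With libraries scaled to the same total, a scaling under which the median of all genes was 0.13 in place of 0.01, TXNIP was at 0.28 (adjusted p = 0.0227), or 0.15 above that median. In Met+FK the counts were 1262, 1339 and 1197, all above the controls and all below the FK libraries. TXNIP rose against DMSO there by 0.77 (adjusted p = 9.73e-06), and lay 0.24 below FK alone (adjusted p = 0.0503, and 0.0387 with DESeq2 on the recovered read pairs).

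Adding FK866 to metformin raised TXNIP by 0.61 on the log2 scale (SE 0.094, adjusted p = 0.022), with all 3 Met+FK libraries above all 3 Met libraries. This was the only one of the 9 genes called in that comparison, in which 0.0585% of all genes were called with the fold limit of 1.5 and 0.0976% passed on the adjusted p alone. Leaving out 1 library kept the size (0.57 to 0.69) but kept the call only without Met replicate 1. Adjusted p was 0.169 without Met replicate 2, 0.0742 without Met replicate 3, and 0.0876, 0.133 and 0.083 without Met+FK replicates 1, 2 and 3. Same-numbered libraries of Met and Met+FK deviated together across genes, and a fit blocked on the replicate number gave TXNIP an adjusted p = 0.00273.

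ARRDC3 and ARRDC4 rose with either drug and had their highest means in FK and Met+FK. ARRDC3, an adaptor known for the ubiquitination of beta-adrenergic receptors, lies on chromosome 5 from 91368631 to 91383317 (minus strand). It was at 1968, 2511 and 1809 normalized counts in DMSO and at 4948, 4942 and 3718 in Met. The FK libraries held 5213, 7883 and 5171, with replicate 2 far above the others, and the Met+FK libraries 6365, 6764 and 5501.5. No library of any drug treatment fell within the DMSO range. Log2 fold changes against DMSO were 1.12 with metformin (adjusted p = 6.17e-05), 1.52 with FK866 (adjusted p = 0.000155) and 1.58 with both (adjusted p = 1.96e-06), each with an SE of 0.16. Without FK replicate 2 the FK866 value was 1.32, the lowest of the fits that left out a library, and it still passed.

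ARRDC4, which like TXNIP lowers glucose uptake, had the lowest level of the 9 genes per kilobase in every treatment. It lies on chromosome 15 from 97960703 to 97973833 (plus strand). Its normalized counts were 86.6, 116 and 94.1 in DMSO, and 179.8, 183 and 147 in Met. They were 199, 287.5 and 213.5 in FK, and 273, 251 and 245 in Met+FK. All treated libraries exceeded the controls, and all FK and Met+FK libraries exceeded all Met libraries. The log2 fold change was 0.78 with metformin (adjusted p = 0.000747), 1.22 with FK866 (adjusted p = 0.000593) and 1.37 with both (adjusted p = 4.37e-06), each with an SE of 0.15.

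The difference between both drugs and metformin alone was 0.46 for ARRDC3 (95% interval 0.11 to 0.81, adjusted p = 0.552) and 0.59 for ARRDC4 (0.26 to 0.92, adjusted p = 0.273). For each gene all 3 Met+FK libraries were above all Met libraries. With the replicate block adjusted p was 0.0206 for ARRDC3 and 0.0438 for ARRDC4, and in that fit 72 of all genes passed higher and 48 lower. After the trend on GC content was removed, with no block, ARRDC3 (0.53, adjusted p = 0.000305) and ARRDC4 (0.62, adjusted p = 0.0139) passed as well. Between both drugs and FK866 alone the libraries overlapped for both genes, with differences of 0.05 (-0.30 to 0.40) for ARRDC3 and 0.15 (-0.18 to 0.48) for ARRDC4. Between the single drugs ARRDC4 was lower in Met than in FK by a log2 fold change of -0.44 (adjusted p = 0.0356), a call lost without FK replicate 2 (-0.28, adjusted p = 0.155), Met replicate 1 (-0.49, adjusted p = 0.0546) or Met replicate 3 (-0.34, adjusted p = 0.13). The ARRDC4 call was also lost with libraries scaled to the same total (-0.34, adjusted p = 0.103). The same held when all genes with any value above 0 were tested (adjusted p = 0.0668) and in a fit to the 6 libraries compared (adjusted p = 0.0637). ARRDC3 was at -0.41 between the single drugs (adjusted p = 0.0631), with 2 of the 6 fits that left out a library passing, those without FK replicate 1 or FK replicate 3.

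The 3 genes that rose most with FK866 have transcripts of low GC content, 37.2% for ARRDC3, 43.4% for ARRDC4 and 43.8% for TXNIP. Removing from each library the trend of values on GC content and length left log2 fold changes of 1.13, 1.03 and 0.87 with FK866, and all 3 still passed. With metformin the values became 0.80 for ARRDC3, 0.60 for ARRDC4 and 0.03 for TXNIP.

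**Figure D2:**
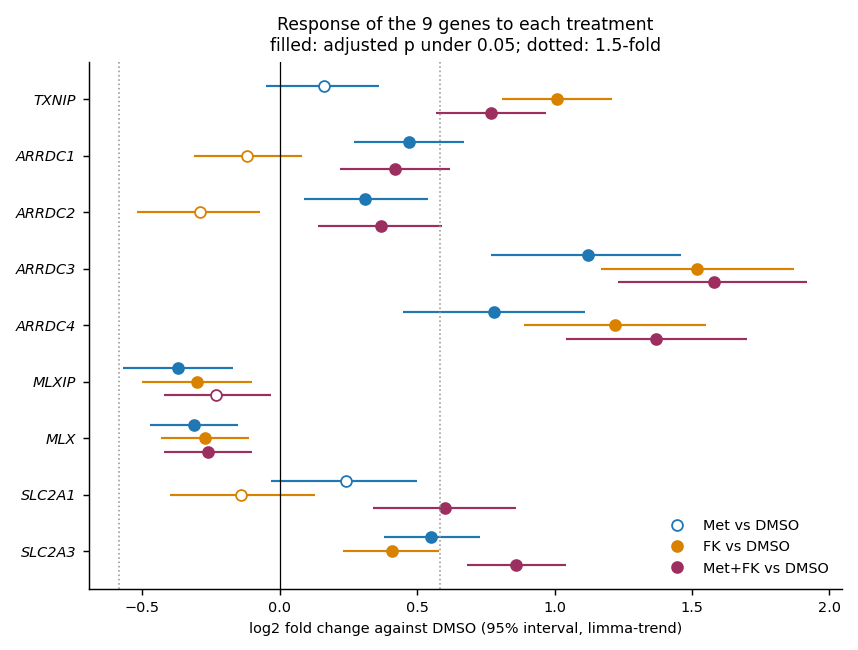
Log2 fold change against DMSO (horizontal axis) of each gene with metformin, FK866 and both, with 95% intervals from limma-trend, filled where adjusted p was under 0.05 and with dotted lines at 1.5-fold. ARRDC3 and ARRDC4 are beyond the dotted line in all 3 treatments, TXNIP in FK and Met+FK, and SLC2A1 and SLC2A3 in Met+FK.

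ARRDC1 and ARRDC2 rose with metformin, alone or with FK866, by less than 1.5-fold. With FK866 alone neither passed the test, although ARRDC2 passed as lower in the blocked fit. ARRDC1, which is known to drive the budding of vesicles from the plasma membrane, lies on chromosome 9 from 137605685 to 137615360 (plus strand). It was at 261, 263 and 259.8 normalized counts in DMSO. Metformin brought it to 364, 332 and 393, and both drugs to 341, 351 and 357. The FK libraries lay at 237, 244 and 242, just below the controls. ARRDC1 rose by 0.47 with metformin (adjusted p = 0.00077) and by 0.42 with both (adjusted p = 0.00165) on the log2 scale. With FK866 the log2 fold change was -0.12 (95% interval -0.31 to 0.08, adjusted p = 0.354), and 0.11 after the GC trend was removed from its GC-rich transcript (64.1%).

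ARRDC2, another alpha-arrestin, lies on chromosome 19 from 18001132 to 18014102 (plus strand). It was at 409.7, 364 and 378.5 normalized counts in DMSO, and at 512, 453.5 and 466 in Met. It was at 343, 272.5 and 329 in FK, all below the controls, and at 514, 507 and 463 in Met+FK. The log2 fold change was 0.31 with metformin (adjusted p = 0.0224), -0.29 with FK866 (adjusted p = 0.0586, and 0.0143 with the replicate block) and 0.37 with both (adjusted p = 0.00911). The metformin call was lost without DMSO replicate 2 (0.27, adjusted p = 0.0702), DMSO replicate 3 (0.30, adjusted p = 0.0601) or Met replicate 1 (0.26, adjusted p = 0.0938), and the FK866 value passed without FK replicate 1 (-0.35, adjusted p = 0.0327). After the GC trend was removed the FK866 value was -0.09. Met+FK and FK differed by 0.66 for ARRDC2 (adjusted p = 0.000163) and 0.53 for ARRDC1 (adjusted p = 0.000335), with every Met+FK library above every FK library, and Met exceeded FK by 0.60 and 0.58.

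MLXIP and MLX were lower in each drug treatment than in DMSO. MLXIP lies on chromosome 12 from 122078756 to 122147344 (plus strand). It was at 3973, 3417 and 4111.5 normalized counts in DMSO. It was at 2830.3, 2761 and 3315 in Met, at 3123, 2844 and 3377 in FK, and at 3205, 3236 and 3365 in Met+FK, so that all treated libraries were below the lowest control. On the log2 scale it fell by 0.37 with metformin (adjusted p = 0.00408) and by 0.30 with FK866 (adjusted p = 0.039). With both drugs the log2 fold change was -0.23 (adjusted p = 0.0535), which passed without DMSO replicate 2 (-0.31, adjusted p = 0.0152) and after the GC trend was removed (-0.29, adjusted p = 2.23e-05).

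MLX, its DNA-binding partner, lies on chromosome 17 from 42567068 to 42573239 (plus strand). It had 3758, 3815 and 3662 normalized counts in DMSO. The values were 2869, 3067 and 3106 in Met, 3219.5, 2873.5 and 3242 in FK, and 2968, 3077 and 3378 in Met+FK, and no treated library reached the controls. MLX fell on the log2 scale by 0.31 with metformin (adjusted p = 0.00287), by 0.27 with FK866 (adjusted p = 0.0297) and by 0.26 with both (adjusted p = 0.0101), each with an SE of 0.075. The FK866 calls of both genes were lost without DMSO replicate 1 (adjusted p = 0.143 for MLXIP and 0.117 for MLX), DMSO replicate 3 (0.129 and 0.0709) or FK replicate 2 (0.164 and 0.134). The FK866 call of MLXIP was also lost when all genes with any value above 0 were tested (adjusted p = 0.0599). The call of MLX with both drugs was lost without Met+FK replicate 1 (adjusted p = 0.0534). It was also lost with libraries scaled to the same total (-0.17, adjusted p = 0.0573, or -0.27 relative to the median of all genes). With the replicate block, which pairs the FK and DMSO libraries, the FK866 values had adjusted p of 0.00205 and 0.00454. Exons of MLX overlap those of PSMC3IP on the opposite strand, and PSMC3IP was at 1153 ± 61.7 normalized counts in DMSO, 766 ± 43.5 in Met, 1135 ± 19.2 in FK and 666 ± 50.6 in Met+FK (SD, n = 3). Whether the counting used strand is not given in the sources used here, so it is not known to which gene reads of the shared bases were assigned. Exons of ARRDC1 and ARRDC3 also overlap those of antisense genes, and whether reads were shared there was not tested. ARRDC1-AS1 held 642 to 951 normalized counts and ARRDC3-AS1 36.7 to 64.8. ARRDC1-AS1 averaged 904 in DMSO, 797 in Met, 726 in FK and 788 in Met+FK, highest in DMSO.

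SLC2A3 rose in all 3 treatments, and SLC2A1 where both drugs were given. SLC2A3, a high-affinity glucose transporter, lies on chromosome 12 from 7919230 to 7936187 (minus strand). It was at 5469, 4846.5 and 5937.5 normalized counts in DMSO. It was at 7773, 7783 and 8215 in Met, at 6569, 7670.2 and 7285 in FK, and at 9447, 10396 and 9558 in Met+FK. All treated libraries were above all controls, and the Met+FK libraries were above all others. The log2 fold change against DMSO was 0.55 with metformin (adjusted p = 7.54e-05), 0.41 with FK866 (adjusted p = 0.0136) and 0.86 with both (adjusted p = 9.57e-07), each with an SE of 0.083. The FK866 call was lost without DMSO replicate 1 (0.42, adjusted p = 0.0604). Met+FK exceeded FK by 0.45 (adjusted p = 0.000498) and Met by 0.31 (95% interval 0.13 to 0.48, adjusted p = 0.311, and 0.0679 with the replicate block). The latter difference passed after the GC trend was removed (0.32, adjusted p = 0.0225). SLC2A14, a near-identical copy of SLC2A3, had at most 6.83 normalized counts in a library. How reads shared by the copies were counted is not given in the sources used here, and their loss was not tested.

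SLC2A1, the main basal glucose transporter, lies on chromosome 1 from 42925375 to 42958868 (minus strand). It was at 3699, 2904 and 3465 normalized counts in DMSO, and at 4372, 3332 and 4186 in Met, where the libraries overlapped the controls. It was at 3422, 2685 and 3043 in FK, which also overlapped them, and at 5697, 4613 and 4929 in Met+FK, where none did. Replicate 2 was the lowest of the 3 libraries in every treatment. SLC2A1 rose with both drugs by 0.60 (SE 0.12, adjusted p = 0.000903), and the values with single drugs were 0.24 with metformin (95% interval -0.03 to 0.50, adjusted p = 0.12) and -0.14 with FK866 (-0.40 to 0.13, adjusted p = 0.406). The metformin value passed without Met replicate 2 (0.36, adjusted p = 0.0309), with libraries scaled to the same total (0.36, adjusted p = 0.0206, or 0.23 above the median of all genes) and after the GC trend was removed (0.33, adjusted p = 0.00533). Met+FK exceeded FK by 0.74 (adjusted p = 0.000231). Its excess over Met was 0.36 (0.10 to 0.63, adjusted p = 0.515), and adjusted p was 0.00563 with the replicate block.

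The split between the transporters was followed as 1 value per library. SLC2A1 made up 41.2 ± 1.91% of the sum of SLC2A1 and SLC2A3 per kilobase in DMSO (SD, n = 3). The share was 36.0 ± 3.16% in Met, 32.5 ± 4.37% in FK and 36.9 ± 3.57% in Met+FK. Exact two-sided permutation tests over libraries gave p = 0.1 for the differences of -5.14 percentage points in Met and -8.66 in FK, and p = 0.3 for -4.23 in Met+FK, where 0.1 is the smallest p that 3 libraries against 3 can give. TXNIP made up 23.5 ± 3.57% of the 5 alpha-arrestins per kilobase in DMSO, 15.7 ± 1.03% in Met, 22.9 ± 3.38% in FK and 18.3 ± 0.51% in Met+FK. Its share differed from DMSO by -7.81 percentage points in Met and -5.22 in Met+FK (exact permutation p = 0.1 each), and by -0.657 in FK (exact permutation p = 0.7).

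The counts of the 9 genes were set beside those of all genes in each comparison. The 9 were chosen with earlier results of these data known, so a count above the share of all genes is no separate evidence. With metformin 7 of 9 passed the adjusted p (5 higher, 2 lower), where 50.9% of all genes passed, and 2 were called with the fold limit, where 23% of all genes were, a share near that of the 9. With FK866 6 of 9 passed (4 higher, 2 lower), where 21.1% of all genes passed, and 3 of 9 (TXNIP, ARRDC3 and ARRDC4) were called with the fold limit, where 3.49% of all genes were. With both drugs 8 of 9 passed and 5 were called, against 52.2% and 25.1% of all genes. The median log2 fold change of the 9 was 0.31, -0.12 and 0.60 in the 3 comparisons, beside 0.01, -0.02 and 0.01 over all genes tested. These comparisons share the DMSO libraries.

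Between treated groups, 4 of 9 passed for Met+FK against FK and 2 were called, SLC2A1 and ARRDC2, where 42.1% of all genes passed and 18.6% were called. For Met against FK 5 of 9 passed, where 36.7% of all genes did. TXNIP was called lower in Met by a log2 fold change of -0.86 (adjusted p = 6.88e-06) and ARRDC2 higher by 0.60, beside 15.1% of all genes called. ARRDC1 (0.58), SLC2A1 (0.37, adjusted p = 0.0268) and ARRDC4 (-0.44) passed without reaching the fold limit. The SLC2A1 call between the single drugs was lost without FK replicate 2 (adjusted p = 0.0778), FK replicate 3 (0.0609), Met replicate 1 (0.119) or Met replicate 3 (0.0833).

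Whether FK866 acted differently when metformin was present was tested directly, as the response to FK866 with metformin minus the response without it. None of the 9 genes passed limma-trend without a block for the replicate number, where 0.0585% of all genes did. An unadjusted p under 0.05 was found for 7 of the 9 and for 4695 of all 15376 genes. edgeR's quasi-likelihood test on the recovered read pairs passed 0 of 9 and DESeq2 passed 1, ARRDC3. Of all 15376 genes edgeR passed 1 higher and 9 lower, and DESeq2 passed 263 higher and 432 lower. ARRDC3 had the largest value, -1.06 in log2 units (SE 0.23, adjusted p = 0.0976), since FK866 raised it by 1.41, 1.65 and 1.52 in the same-numbered pairs without metformin and by 0.36, 0.45 and 0.57 with it. The values were -0.63 for ARRDC4 (adjusted p = 0.112) and -0.40 for TXNIP (adjusted p = 0.111). They were positive for SLC2A1 (0.50, adjusted p = 0.112), MLXIP (0.44, adjusted p = 0.11), ARRDC2 (0.34, adjusted p = 0.142) and MLX (0.33, adjusted p = 0.111), and near 0 for ARRDC1 (0.07) and SLC2A3 (-0.10).

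In the fit blocked on the replicate number these 7 genes passed, with adjusted p from 0.00121 for ARRDC3 to 0.044 for ARRDC2, in a fit in which 2380 of all 15376 genes passed higher and 2534 lower. After the GC trend was removed ARRDC3 (-0.60, adjusted p = 0.0049) and MLXIP (0.32, adjusted p = 0.0309) passed, beside 45 of all 15324 genes higher and 47 lower. Without FK replicate 1, 3 of the 9 passed, ARRDC3 (adjusted p = 0.0391), SLC2A1 (0.0484) and ARRDC4 (0.0495). In that fit 980 of all 15376 genes passed higher and 865 lower. Without any other library none of the 9 passed.

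**Figure D3:**
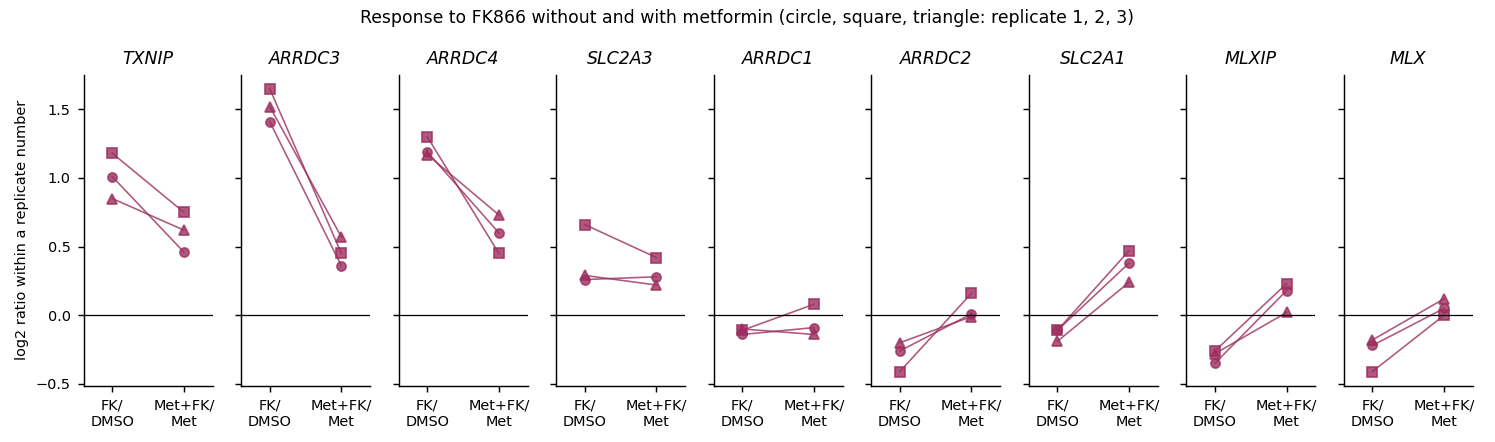
Log2 ratio of FK to DMSO and of Met+FK to Met (vertical axis) for each gene, with 1 line per replicate number. All 3 lines fall for TXNIP, ARRDC3 and ARRDC4, and all 3 start below 0 and end above it for SLC2A1 and MLXIP, and for MLX with replicate 2 ending at 0.00.

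Among all tested genes, the profile most like that of ARRDC3 over the 12 libraries was that of ARRDC4, and the reverse was also true, with a root mean square difference of 0.158 between their centred log2 values. Next to ARRDC3 came CXCL8 (0.226), a neutrophil chemokine, and SIPA1L2 (0.235), and next to ARRDC4 came TIPARP (0.173), a mono-ADP-ribosyltransferase, and SIPA1L2 (0.191). The profiles most like TXNIP were those of HES1 (0.181), a transcriptional repressor downstream of Notch, PXK (0.188) and NRG1 (0.189), a ligand of ERBB receptors. For TXNIP, ARRDC4 came 194th (0.333) and ARRDC3 3560th (0.433). SLC2A1 was nearest to CLCN7 (0.089), a lysosomal chloride transporter, ITPKC (0.096) and MTMR3 (0.097), and SLC2A3 to ZNF862 (0.075), TNKS (0.09) and LHFPL2 (0.091). SLC2A3 ranked 2015th for SLC2A1. The 12 libraries share treatment, depth and replicate structure, so these distances are descriptions.

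The other genes whose promoters hold the searched form of the carbohydrate response element were set beside TXNIP. Of the 16 genes with it, 12 were tested, and of the 11 besides TXNIP, 1 passed higher with FK866 and 0 lower (median log2 fold change -0.08, range -0.21 to 0.49), where 21.1% of all genes passed. That gene was GFPT1, the first enzyme of the hexosamine pathway, at 0.49 (adjusted p = 0.0114). With metformin 3 of the 11 passed higher and 3 lower (median 0.02), near the 50.9% of all genes that passed, with GFPT1 among the former at 0.52 (adjusted p = 0.000343).

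The genes around these 9 were counted in 7 lists, to be read beside the share of all genes that passed, which was 50.9% with metformin, 21.1% with FK866 and 52.2% with both drugs, and beside the medians of all genes, 0.01, -0.02 and 0.01. The counts describe the lists, and nothing particular to a list is read from them.

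The MAX and MLX network, the E-box factors that share partners with MLXIP and MLX, had 10 tested genes. With metformin 5 passed higher and 1 lower (6 of 10, near the 50.9% of all genes), the largest being MYCL (1.73, adjusted p = 2.9e-07), MXD1 (1.37, adjusted p = 8.1e-08), a repressor that competes with MYC for MAX, and MXI1 (1.16, adjusted p = 1.42e-06). The gene that passed lower was MXD3 (-1.10), named after its value was seen. The list's median was 0.44 beside 0.01 over all genes. With FK866 3 passed higher and 2 lower, led by MXD1 (0.49), MGA (0.43) and MYCL (-0.42), with a median of -0.10 beside -0.02. With both drugs 7 passed higher and 1 lower, including MYC at 0.75 (adjusted p = 8.58e-07), chosen after its value was seen, and MYCL at 2.05, MXD1 at 1.49 and MXI1 at 1.37.

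Of 7 other hexose transporters tested, 1 passed higher and 3 lower with metformin, a share near the 50.9% of all genes. SLC2A12 (-0.95, adjusted p = 6.4e-06), SLC2A10 (0.65, adjusted p = 0.011) and SLC2A6 (-0.41, adjusted p = 0.0311) had the largest values, and the list's median was -0.15. SLC2A12 was the 1 gene that passed with FK866, at 0.47 (adjusted p = 0.0201), and again the 1 that passed with both drugs, at -0.87.

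Genes that phosphorylate glucose or handle glucose 6-phosphate, the metabolite read by MLXIP, numbered 9 among those tested. Of these, 2 passed higher and 5 lower with metformin (median -0.25), 1 higher and 1 lower with FK866 (median -0.13), and 2 higher and 4 lower with both (median -0.18). The FK866 count of 2 in 9 is near the 21.1% of all genes, and those with metformin and with both stand beside 50.9% and 52.2%. The hexokinase HKDC1 rose with metformin by 2.48 from a low level (15.5 normalized counts in DMSO, 83.7 in Met) and HK2 by 0.66 (adjusted p = 2.83e-05), while SLC37A4, the glucose 6-phosphate carrier of the endoplasmic reticulum, had a log2 fold change of -0.65 (adjusted p = 0.000308). With FK866 the genes that passed were PGM2 (0.43, adjusted p = 0.0329) and GPI (-0.31, adjusted p = 0.0341).

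The thioredoxin and peroxiredoxin system, to which TXNIP binds, had 19 tested genes. With metformin 4 passed higher and 11 lower (median -0.28), led by the methionine sulfoxide reductase MSRB1 (-0.94, adjusted p = 1.62e-05), PRDX2 (-0.79, adjusted p = 0.000948) and the sulfiredoxin SRXN1 (0.70, adjusted p = 2.91e-05). With FK866 1 passed higher, the thioredoxin reductase TXNRD1 (0.55, adjusted p = 0.0043), and 4 lower, among them GLRX (-0.43) and TXNRD2 (-0.36), with a median of -0.16. With both drugs 3 passed higher and 10 lower (median -0.23), led by SRXN1 (0.99), PRDX2 (-0.91) and MSRB1 (-0.87). These 15, 5 and 13 of 19 genes stand beside 50.9%, 21.1% and 52.2% of all genes, the FK866 count being near its share.

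Of 5 listed relatives of the alpha-arrestins 2 were tested, the beta-arrestins ARRB1 and ARRB2. Both fell with metformin, with log2 fold changes of -0.75 (adjusted p = 8.17e-05) and -0.57 (adjusted p = 8.4e-05). With FK866 ARRB2 fell by 0.37 (adjusted p = 0.0208) on that scale and ARRB1 was at -0.21 (adjusted p = 0.168). Of 8 tested NEDD4-family ligases, 2 passed higher and 1 lower with metformin, WWP2 (-0.37), SMURF2 (0.34) and ITCH (0.29), and 2 higher and 0 lower with FK866, WWP1 (0.48) and ITCH (0.38). Of 9 tested genes of endosomal recycling, a list of retromer and retriever subunits and of factors that work with them in returning proteins such as GLUT1 to the plasma membrane, 4 passed higher and 0 lower with metformin. The largest values were those of TBC1D5 (0.68, adjusted p = 1.75e-05), which acts on the GTPase RAB7, the retriever subunit VPS26C (0.51, adjusted p = 6.98e-05) and the retromer subunit VPS26A (0.35). With FK866 2 passed higher and 1 lower, VPS35 (0.35), TBC1D5 (0.28) and VPS26B (-0.25). The ligase and recycling counts lie near or below the 50.9% of all genes with metformin, and with FK866 they stand beside 21.1%. In none of the 7 lists did a gene pass limma-trend between Met+FK and Met or in the direct test of the difference in FK866 response.

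**Figure D4:**
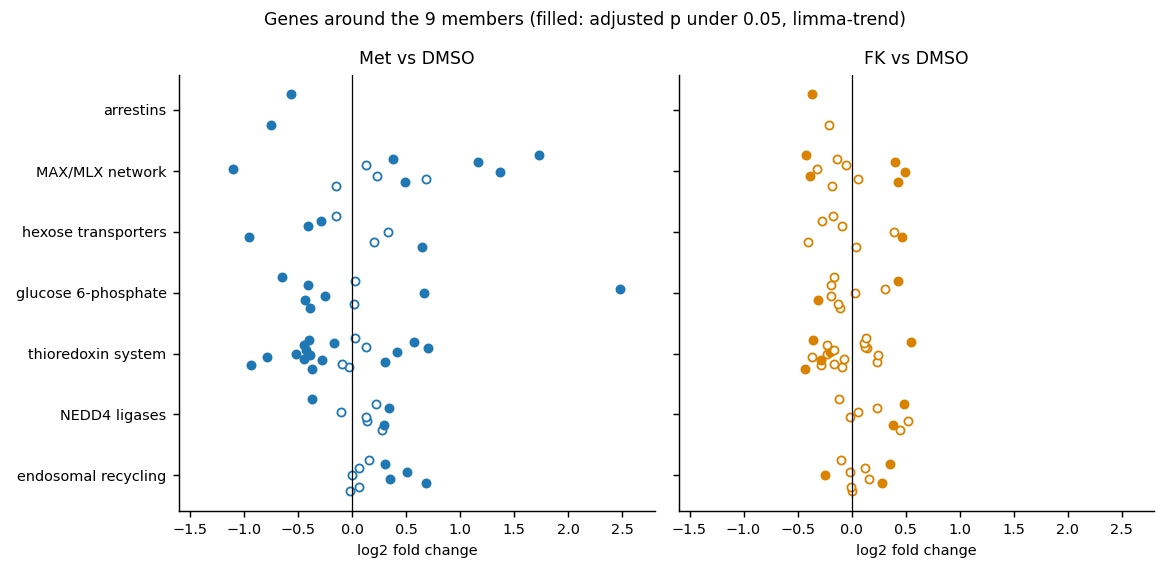
Log2 fold change (horizontal axis) of the tested genes of 7 lists around the 9 genes, with metformin on the left and FK866 on the right, 1 circle per gene, filled where adjusted p was under 0.05. Metformin spread the genes from -1.10 (MXD3) to 2.48 (HKDC1), and with FK866 none passed beyond 0.55.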

How the data were processed

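RNA sequencing of KP4 cells was analysed in 12 libraries, 3 per treatment. The authors used cutadapt for trimming, RNA STAR for alignment to hg38, featureCounts for read pairs per gene and DESeq2 for normalization. Neither the annotation nor the strandedness used in counting is given in the sources used here. The deposited signal values are counts divided by a size factor. In every library 100% of the values were whole multiples of 1 read pair within 0.01, so the counts were recovered (30667735 to 41052203 read pairs). Small counts limit precision most for ARRDC4.

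Comparisons were tested by limma-trend (limma 3.58.1, R 4.3.3) on log2(value + 1), with 1 mean per treatment over all 12 libraries, for 15376 genes with a mean of at least 10, adjusted by the Benjamini-Hochberg method within each comparison. Calls needed an adjusted p under 0.05 and a fold change over 1.5, with no fold limit for the difference in FK866 response. Fold changes on this scale understate those of low genes. The fit was tested on simulated data.

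Alternatives were pseudocounts of 0.1 and 10, other low-count filters, equal totals, TMM, edgeR 4.0.16 and DESeq2 1.42.0 on recovered read pairs, fits to the 6 libraries of a comparison, a block for replicate number, removal of a GC and length trend (loess, span 0.3, known for 99.7% of genes), and each library left out. The replicate numbers were checked by correlating, across genes, how far libraries with 1 number lay from the means of their treatments. Correlations were 0.252, 0.42 and 0.219 for FK and DMSO and 0.171, 0.2 and 0.226 for Met+FK and Met, all above 0.1. These 2 comparisons were therefore read as paired on the evidence of the values, and results with the block are given beside them. The main fit had no block, so its p-values for them, and for the difference in FK866 response, do not use the pairing. In the other comparisons at least 1 was below 0.1. The block was fitted to all 12 libraries, so it also ties together the treatments of those comparisons. After the GC correction 2 of the 3 for Met+FK and Met were below 0.1 (0.159, 0.096 and 0.074).

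The members and lists were chosen with earlier results of these data known. All 9 members were named, and in each list up to 3 passing genes with the largest absolute log2 fold change per comparison described, plus the 3 nearest profiles of 5 members. Table starts count from 0 and were raised by 1. Lengths and GC content are those of the canonical transcript in GENCODE 44.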

Additional observations from a re-analysis of the deposited data

Results flagged for a closer look

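For 3 of the 9 genes the log2 ratio of FK866-treated to untreated libraries was below 0 in all 3 same-numbered pairs without metformin and at or above 0 in all 3 with it, reaching 0.00 in 1 pair of MLX and 0.02 in 1 pair of MLXIP. For SLC2A1 the log2 ratios were -0.11, -0.11 and -0.19 without metformin and 0.38, 0.47 and 0.24 with it, a difference between the responses of 0.50 (SE 0.17, adjusted p = 0.112 by limma-trend, and 0.00345 with the replicate block). For MLXIP they were -0.35, -0.26 and -0.28 against 0.18, 0.23 and 0.02, a difference of 0.44 (SE 0.13, adjusted p = 0.11, and 0.00578 with the block). For MLX they were -0.22, -0.41 and -0.18 against 0.05, 0.00 and 0.12, a difference of 0.33 (SE 0.11, adjusted p = 0.111, and 0.0171 with the block). With all 12 libraries and no correction none of the 3 passed without the block. Without the block MLXIP passed after the GC trend was removed (0.32, adjusted p = 0.0309) and SLC2A1 without FK replicate 1 (0.59, adjusted p = 0.0484). After that GC correction, again without the block, SLC2A1 (0.37, adjusted p = 0.157) and MLX (0.25, adjusted p = 0.132) did not pass. The log2 fold change of SLC2A1 with FK866 alone was then -0.03 (adjusted p = 0.858). The 3 genes were picked by the signs of these ratios, so the differences are no separate evidence. How many of all genes have the same signs was not counted. In the blocked fit 2380 of all 15376 genes passed higher and 2534 lower.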

How the results depend on the processing

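Of 1179 recomputed values of single genes, 1072 kept their direction and their side of the threshold, 31 kept the direction but no longer passed, 58 newly passed and 18 changed sign, none of these called before or after. The number of genes called with FK866 against DMSO was 3 under every alternative, and that with both drugs against DMSO was 4 to 5. With metformin against DMSO 2 were called, 4 with equal totals, and 2 to 3 under every other alternative. Over all genes 1964 were called higher and 1566 lower there, and 2835 and 1025 with equal totals. Between Met+FK and Met 1 was called, 2 with the replicate block, the GC correction or both, 0 with equal totals, and 0 to 1 with 1 library left out. Over all genes 8 were called higher and 1 lower there. The numbers were 18 and 7 with the block, 14 and 7 with the GC correction, 17 and 18 with both, and 6 and 2 with equal totals. Between Met+FK and FK 2 were called, 1 with the GC correction with or without the block, and 1 to 2 with 1 library left out (1 without FK replicate 2). Between Met and FK 2 were called, 1 with the GC correction with or without the block, and 1 to 3 with 1 library left out (1 without Met replicate 1). For the difference in FK866 response 0 passed, 1 with DESeq2, 2 with the GC correction, 7 with the block, 4 with both, and 0 to 3 with 1 library left out. Over all genes 1 passed higher and 8 lower there, and 263 and 432 did with DESeq2. The numbers were 45 and 47 with the GC correction, 2380 and 2534 with the block, and 737 and 331 with both. Without FK replicate 1 they were 980 and 865. The block changed the calls given beside the results, and among comparisons not read as paired it let pass SLC2A1 with metformin (adjusted p = 0.00197), MLXIP with both drugs (0.00494), TXNIP between Met+FK and FK (0.0224) and ARRDC3 between Met and FK (0.00127). It changed no other call. The GC correction, with or without the block, changed the sign of ARRDC1 with FK866 (0.11), of MLXIP (-0.07) and MLX (-0.0046) between Met+FK and FK, and of ARRDC1 (-0.22) and SLC2A3 (0.02) in the difference in FK866 response. Equal totals changed the sign of MLXIP (0.03) and MLX (0.05) between Met and FK. Leaving out 1 library spread ARRDC3 from -0.05 to 0.25 and MLX from -0.04 to 0.05 between Met+FK and FK, and ARRDC1 from -0.11 to 0.01 between Met+FK and Met. Without division by length the SLC2A1 share in DMSO was 38.2%, and the TXNIP share was 13.1% in Met, 18.3% in FK and 14.8% in Met+FK. The cause of these changes was not tested. A fit limited to 6 libraries has fewer residual degrees of freedom, and with it the FK866 calls of MLXIP, MLX and SLC2A3 did not pass (adjusted p = 0.0846, 0.0758 and 0.0596). ARRDC4 had the fewest read pairs of the 9, 75 in DMSO replicate 1.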
